A study of Mus musculus with 17 samples.

Results

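The genes described here are 8 mRNAs for proteins of the secretory pathway, Trh, Cpe, Pcsk1n, Apoe, Mdk, Igfbp2, Wfdc2 and Spint2, among the 55416 gene IDs in every count file. They were chosen by their levels in these data, as short, abundant mRNAs much higher on ribosomes of the endoplasmic reticulum (ER) than in the whole cell, so that comparison is a description of how they were chosen and carries no test for them. All 8 passed the filter on low counts in each fit. The data go against the label for 1 of them, Cpe, which had 4.14 to 13.5 counts per M gene counts (CPM). Its coding sequence of 1431 nucleotides (nt) was longer than those of 51.4% of the 14193 tested genes with a coding sequence.

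The cells were mouse embryonic stem cells of the E14Tg2a.4 line, all carrying an Rpl31-FLAG-TEV-AviTag (FTA) that lets a biotin ligase mark the large ribosomal subunit, and all were cultured with leukemia inhibitory factor in fetal bovine serum. Proximity biotinylation with ALIBi, directed in every culture to the ER, marked ribosomes there, and poly-A RNA was sequenced both from the affinity-purified ribosomes and from the lysate before purification (whole-cell RNA). The siRNA was a scramble control, or was directed at Nmd3, an export adaptor of the large ribosomal subunit, or at Gnl3, a nucleolar GTPase also called nucleostemin. ER ribosome-bound RNA had 2 scramble, 3 Nmd3 and 3 Gnl3 libraries, and whole-cell RNA had 3, 2 and 2, after 2 further whole-cell libraries (Nmd3 replicate 2 and Gnl3 replicate 3) were set aside because their labels say the study did so as outliers.

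Secreted proteins begin with a signal peptide, a run of hydrophobic residues that is recognised as it leaves the ribosome and brings the translating ribosome to the ER membrane. Peptide hormones and many growth factors are made there as longer precursors and are cut and trimmed later along the pathway. Trh encodes the precursor of thyrotropin-releasing hormone, a tripeptide amide best known as the hypothalamic hormone that stimulates thyrotropin release. Cpe encodes carboxypeptidase E, which removes the basic residues left after precursor cleavage, and Pcsk1n encodes proSAAS, an inhibitor of the prohormone convertase Pcsk1. Apoe encodes apolipoprotein E, a secreted lipid carrier, Mdk the heparin-binding growth factor midkine, and Igfbp2 a secreted binding protein of insulin-like growth factors. Wfdc2 encodes a secreted protein with WAP domains, and Spint2 a membrane-anchored Kunitz inhibitor of serine proteases.

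The first 26 codons of each coding sequence are shown because they hold the stretch that directs a ribosome to the ER. They were read from the GENCODE M21 transcripts (GRCm38), 5′ to 3′, with every codon from codon 2 onward whose second base is T (NTN, read in frame on the coding strand) in capitals. Such codons specify only hydrophobic residues.
Trh start: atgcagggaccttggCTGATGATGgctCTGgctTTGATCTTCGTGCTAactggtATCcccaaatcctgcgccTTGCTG
Cpe start: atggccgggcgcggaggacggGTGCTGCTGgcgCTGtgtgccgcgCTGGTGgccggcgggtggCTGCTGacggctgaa
Pcsk1n start: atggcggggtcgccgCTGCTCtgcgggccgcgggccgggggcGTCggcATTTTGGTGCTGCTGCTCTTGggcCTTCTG
Apoe start: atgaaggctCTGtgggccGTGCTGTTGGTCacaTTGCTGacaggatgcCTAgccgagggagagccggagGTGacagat
Mdk start: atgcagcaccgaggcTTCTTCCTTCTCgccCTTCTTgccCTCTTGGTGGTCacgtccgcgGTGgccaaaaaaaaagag
Igfbp2 start: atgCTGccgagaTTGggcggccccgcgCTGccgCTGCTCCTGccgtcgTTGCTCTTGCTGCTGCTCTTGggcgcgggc
Wfdc2 start: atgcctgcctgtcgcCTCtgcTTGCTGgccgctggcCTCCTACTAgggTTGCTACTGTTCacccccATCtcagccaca
Spint2 start: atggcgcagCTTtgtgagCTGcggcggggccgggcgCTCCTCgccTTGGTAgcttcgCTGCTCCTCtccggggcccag
Of codons 2 to 26, Igfbp2 had 13 NTN codons, Trh and Pcsk1n 12 each, Mdk and Wfdc2 11 each, Apoe and Spint2 9 each and Cpe 8. The median over the 14193 tested genes with a coding sequence was 6, and 68.7% of those genes had fewer NTN codons than Cpe and 97.8% fewer than Igfbp2.

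The coding sequence of Trh carries the hormone itself in several copies, each shown here with the codons on either side. Capitals mark an in-frame run of 4 codons for Gln-His-Pro-Gly, the progenitor of the hormone, in which the Gly later gives the amide, and lower case marks the pairs of codons for basic residues that flank it.
Trh copy 1: aaacgcCAGCATCCGGGCaaaagg
Trh copy 2: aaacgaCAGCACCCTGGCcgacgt
Trh copy 3: aagcggCAGCACCCTGGCaggcga
Trh copy 4: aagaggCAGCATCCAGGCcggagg
Trh copy 5: aaacgtCAGCATCCTGGCaaaagg
The copies start at nt 229, 325, 460, 514 and 607 of the 771 nt, counted from 1 at the start codon, and each of the 5 lies between 2 such pairs. Of 21571 coding sequences in the annotation, 72 (0.334%) held at least 1 such run, and Trh was the only 1 with more than 1 copy.

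Libraries held 15.2 to 29.9 M gene counts. Both siRNAs lowered their target: Nmd3 went from 120.0 and 123.7 CPM in the scramble ER libraries to between 24.1 and 25.2 CPM, and Gnl3 from 170.0 and 177.4 to between 26.9 and 31.6 CPM. All 14 markers of pluripotent cells were above 1 CPM in every group. The summed levels of markers of primitive endoderm (17.8 to 24.3 CPM), fibroblasts (26.4 to 34.6 CPM), 2-cell-like cells (12.9 to 29.1 CPM), neural cells (112.1 to 136.2 CPM) and trophoblast (90.1 to 117.8 CPM) compare with the pluripotency sum of 7951 to 11630 CPM. In bulk RNA, fewer cells that express a gene and less RNA per cell cannot be told apart. The replicates are labelled as biological. The p-values set a group difference against the spread between them, estimated over all groups of a fit and shared in part across genes.

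In scramble whole-cell RNA the 8 mRNAs together made up 0.132% ± 0.00331 (SD, n = 3) of gene counts. Per kilobase of transcript, Apoe was at 352.1 ± 8.85 CPM, Mdk at 199.8 ± 3.63 and Igfbp2 at 190.2 ± 10.0 (SD, n = 3), and the last 2 differed by less than the SD of Igfbp2. Spint2 followed at 108.7 ± 2.98 and Trh at 97.2 ± 1.13 CPM per kilobase. Wfdc2 (25.9 ± 1.77) and Pcsk1n (25.6 ± 0.698) could not be ordered, and Cpe was lowest at 2.05 ± 0.112 CPM per kilobase.

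On scramble ER ribosomes the 8 mRNAs together took 0.37% ± 0.0016 (SD, n = 2) of gene counts. Trh was at 375.9 and 373.2 CPM there, against 132.8, 135.9 and 134.8 CPM in whole-cell RNA, so all ER values lay well above all whole-cell values. Apoe was at 1455 and 1437 CPM on ER ribosomes and at 484.1, 494.3 and 508.9 CPM in whole-cell RNA. Cpe was at 8.53 and 7.72 CPM against 4.14, 4.597 and 4.26 CPM. The fitted log2 ratio of ER to whole-cell RNA in scramble cells was 1.52 for Apoe, 1.46 for Mdk, 1.45 for Trh, 1.45 for Wfdc2, 1.44 for Spint2, 1.42 for Pcsk1n, 1.38 for Igfbp2 and 0.88 for Cpe. Of all genes, 50.3% were called between the fractions and 25.1% were called higher on ER ribosomes. The median log2 ratio over all genes was 0.02. By rank, Apoe stood in the top 0.602% of 18271 genes and Igfbp2 in the top 1.11%, and the others except Cpe stood between them. With Nmd3 siRNA, where 50.1% of all genes were called, the log2 ratios were 1.70 for Wfdc2, 1.50 for Apoe and Mdk, 1.39 for Trh, 1.34 for Igfbp2 and Spint2, 1.27 for Pcsk1n and 1.14 for Cpe. With Gnl3 siRNA, where 48.1% were called, they were 1.54 for Wfdc2, 1.52 for Apoe, 1.51 for Pcsk1n, 1.47 for Mdk, 1.46 for Spint2, 1.33 for Igfbp2, 1.21 for Trh and 1.11 for Cpe. Cpe, at the top 7.07% in scramble cells, had the lowest ratio of the 8 under each siRNA. With the 2 set-aside libraries restored, the ratios under Nmd3 siRNA moved to 0.52 for Pcsk1n, 0.82 for Spint2, 0.83 for Mdk, 0.91 for Igfbp2 and Cpe, 1.06 for Wfdc2, 1.28 for Apoe and 1.601 for Trh, and Cpe was then not the lowest.

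**Figure D1:**
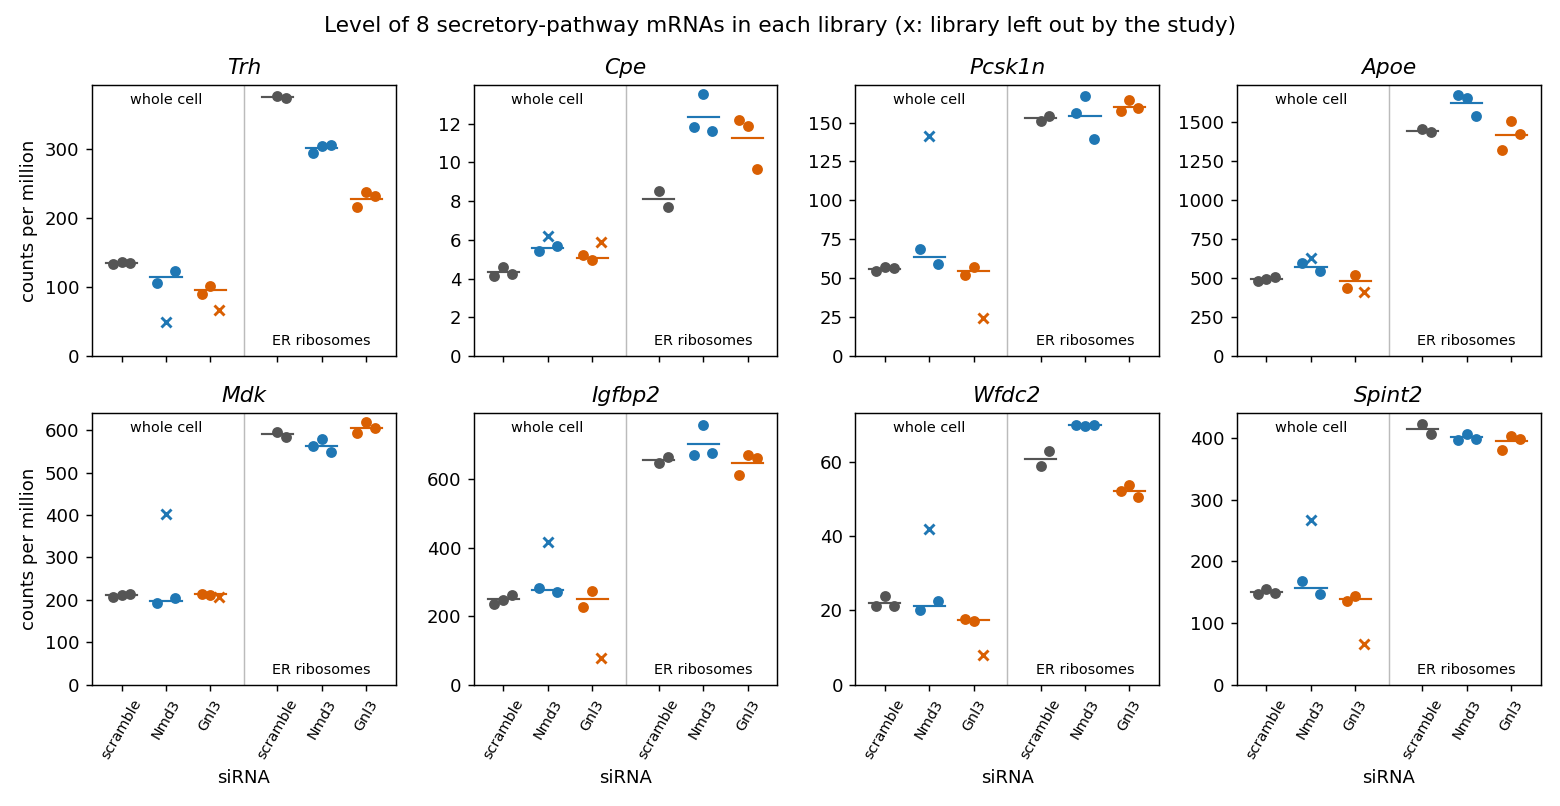
Level of each of the 8 mRNAs in CPM (vertical axes, each from 0) in every library, by siRNA and fraction; points are libraries, crosses are the 2 whole-cell libraries the study left out, and lines are means of the points. Crosses aside, every ER ribosome point lies above the whole-cell points of the same gene, and Trh steps down from scramble (373.2 and 375.9 CPM on ER ribosomes) to Nmd3 siRNA (293.4 to 305.4) to Gnl3 siRNA (215.2 to 237.1).

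Each lysate that gave both fractions has its own ratio of CPM. In the 6 such lysates the ratio was 2.35 to 2.77 for Trh, 2.81 to 3.02 for Apoe, 2.69 to 2.94 for Mdk, 2.38 to 2.695 for Igfbp2 and 2.37 to 2.82 for Spint2. The ratio of Wfdc2 varied more, from 2.48 to 3.48, and that of Pcsk1n from 2.28 to 3.01. That of Cpe ran from 1.81 to 2.38, below every ratio of Apoe, Mdk or Wfdc2 in any lysate. Pcsk1n overlaps Eras, a Ras-like gene of embryonic stem cells, on the opposite strand, and the strand setting of the counting is not given in the sources used here. Whether the counts of these 2 genes were kept apart where they overlap is therefore not known. Eras itself had ratios of 1.13 to 1.32 in the same lysates. The other 7 genes overlap no exon of another gene in that annotation.

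Coding length differed with this ratio across the transcriptome. The median log2 ER to whole-cell ratio in scramble cells was 0.44 among 1212 genes with a coding sequence under 500 nt and -1.04 among 631 genes of 5000 nt and over. Mdk (423 nt) ranked 26th of 1212 genes in the shortest class. Among 3240 genes from 500 to below 1000 nt, whose median was 0.29, Apoe (936 nt) ranked 32nd, Trh (771 nt) 42nd, Wfdc2 (525 nt) 43rd, Spint2 (759 nt) 44th, Pcsk1n (777 nt) 51st and Igfbp2 (918 nt) 64th. Cpe (1431 nt) ranked 252nd of 3248 genes in the next class, whose median was 0.12. Each gene stood high among genes of like coding length. The genes were chosen as short mRNAs with a high level of this same ratio, so their ranks carry no test for them. Among genes with a coding sequence under 1500 nt the median log2 ratio was 0.20 for 0 to 4 NTN codons in codons 2 to 26 and 0.56 for 10 to 25. These are descriptions across genes, which share the same libraries.

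**Figure D2:**
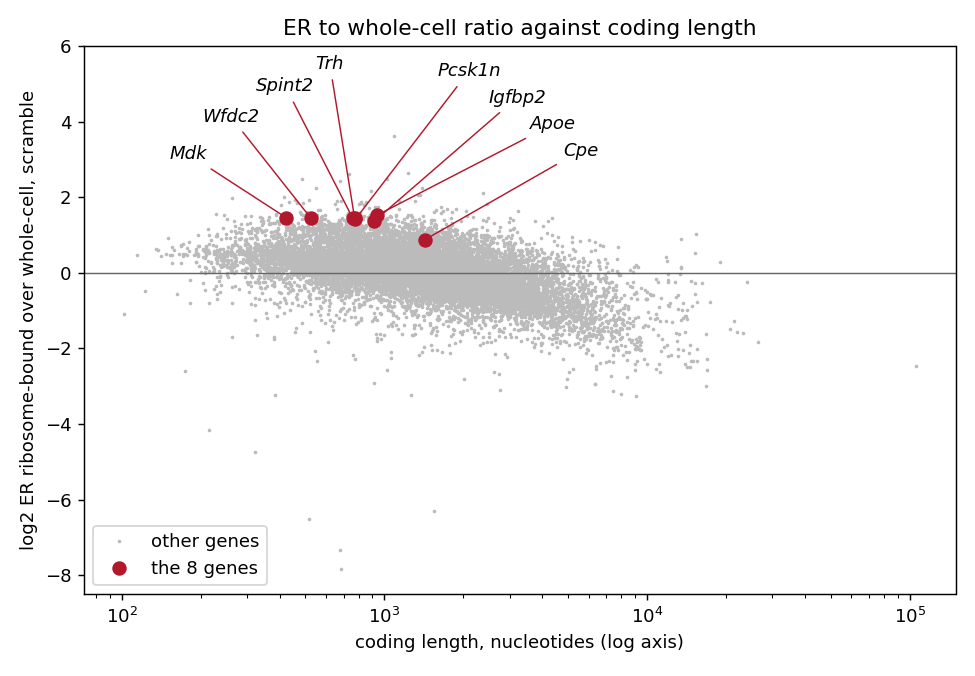
Fitted log2 ratio of ER ribosome-bound to whole-cell RNA in scramble cells (vertical axis) against coding length in nucleotides (horizontal, log axis); each grey point is a tested gene and the 8 genes are red. Mdk is the shortest at 423 nt, Cpe the longest at 1431 nt, and 7 of the 8 lie at log2 ratios of 1.38 to 1.52 while Cpe lies at 0.88.

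Trh was the member that changed most clearly with the siRNAs, and it was lower under both. On ER ribosomes it was at 375.9 and 373.2 CPM with scramble siRNA, at 293.4, 304.2 and 305.4 CPM with Nmd3 siRNA and at 215.2, 237.1 and 231 CPM with Gnl3 siRNA. From high to low, the group means ran from scramble to Nmd3 to Gnl3 siRNA. Each comparison with scramble, in either fraction, shares the scramble libraries in which the genes were chosen. Against scramble Trh fell by 0.73 on the log2 scale with Gnl3 siRNA (SE 0.0469, a fold of 0.604; adjusted p = 1.68e-10, edgeR quasi-likelihood test with Benjamini-Hochberg adjustment), and 2.68% of 17632 genes were called in that comparison. With Nmd3 siRNA it fell by 0.31 (SE 0.0471, a fold of 0.808; adjusted p = 0.000563 in the same edgeR test), where 1.17% of genes were called. The Gnl3 call was kept under each alternative tried. The Nmd3 call was lost without scramble ER replicate 2 (log2 change -0.30, adjusted p = 0.0515; range over all alternatives 8.74e-08 to 0.0515).

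In whole-cell RNA Trh was at 132.8, 135.9 and 134.8 CPM with scramble siRNA, at 105.9 and 122.8 CPM with Nmd3 siRNA and at 89.6 and 101.1 CPM with Gnl3 siRNA. The order of the group means was the same as on ER ribosomes. The Gnl3 libraries lay below every scramble library in both fractions, as for 6.87% of 9784 genes with a mean of at least 10 CPM. Trh fell by 0.49 on the log2 scale with Gnl3 siRNA (SE 0.0698, edgeR adjusted p = 0.000168), where 0.812% of 17490 genes were called. With Nmd3 siRNA the log2 difference was -0.24 (SE 0.0688, edgeR adjusted p = 0.192), where 0.166% of genes were called. The Gnl3 call was lost without Gnl3 whole-cell replicate 1 (log2 change -0.41, adjusted p = 0.0633), and with the 2 set-aside libraries restored the adjusted p was 0.999 at a log2 change of -0.60 (range over all alternatives 4.23e-08 to 0.999). The Nmd3 difference shrank to -0.12 when Nmd3 whole-cell replicate 1 was left out (adjusted p = 0.813), and leaving out replicate 3 instead gave -0.37 (adjusted p = 0.000657).

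Marker sums of other cell types also differed with Gnl3 siRNA on ER ribosomes, though few single markers were called. With Gnl3 siRNA there, 0 of 4 tested fibroblast markers and 0 of 8 of primitive endoderm were called. The calls were also 0 of 6 for 2-cell-like cells and 0 of 5 for trophoblast. Of 6 tested neural markers 1 was called, lower, beside 2.68% of all genes called either way. On ER ribosomes the summed fibroblast markers were at 26.4 to 27.8 CPM with scramble and 31.1 to 34.6 CPM with Gnl3 siRNA, with 3 of 10 above 1 CPM and Prrx1 at 0 in both groups. The primitive endoderm sum went from 18.0 to 19.9 CPM up to 20.3 to 21.9 CPM, with 5 and then 7 of 11 markers above 1 CPM and Afp and Ttr at 0 with Gnl3 siRNA. The 2-cell-like sum was 20.8 CPM in both scramble libraries and 23.4 to 29.1 CPM. The neural sum went from 128.7 to 135.5 CPM down to 115.7 to 125.5 CPM, with 6 of 8 markers above 1 CPM in each, and the trophoblast sum from 114.5 to 116.5 CPM down to 101.5 to 114.4 CPM, with 5 of 6 in each. The pluripotency sum was 11350 to 11630 CPM and 10510 to 10880 CPM, and 4 of its 14 markers were called lower with Gnl3 siRNA, where 1.17% of all genes were. These 4, named after their values were seen, were Nanog (-0.25), Dppa5a (-0.21), Esrrb (-0.20) and Zfp42 (-0.17). Their calls were not tried without each library. In whole-cell RNA 0 of the 14 markers were called with Gnl3 siRNA. The primitive endoderm sums overlapped there, at 21.19 to 23.99 CPM with scramble and 21.97 to 23.16 CPM with Gnl3 siRNA. Of the 11 primitive endoderm markers, 7 were above 1 CPM in both of these groups. The whole-cell fibroblast, 2-cell-like, neural and trophoblast sums did separate, in the same directions as on ER ribosomes. The share of all genes whose ER libraries separate in this way was not counted. With Nmd3 siRNA the trophoblast sum was 104.1 to 108.6 CPM on ER ribosomes, and 0 of its 5 tested markers were called. Their part in the change of Trh was not tested.

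Of the processing enzymes and inhibitors of the same pathway, Cpe was higher on ER ribosomes with Nmd3 siRNA and Pcsk1n was not called. Cpe was at 8.53 and 7.72 CPM on scramble ER ribosomes, at 11.8, 13.5 and 11.6 CPM with Nmd3 siRNA and at 12.2, 11.9 and 9.67 CPM with Gnl3 siRNA. It rose by a log2 change of 0.61 with Nmd3 siRNA (SE 0.141, edgeR adjusted p = 0.0264). With Gnl3 siRNA the change was 0.47 (SE 0.14) and was not called (edgeR adjusted p = 0.0725), though it was without Nmd3 replicate 2 (0.0185) and without a filter on low counts (0.0382). The Nmd3 call rested on both scramble libraries: without replicate 2 the log2 change was 0.69 (adjusted p = 0.17) and without replicate 3 it was 0.53 (adjusted p = 0.41; range over all alternatives 0.00285 to 0.41). In whole-cell RNA Cpe was at 4.14, 4.597 and 4.26 CPM with scramble, 5.43 and 5.71 CPM with Nmd3 and 5.198 and 4.98 CPM with Gnl3 siRNA, and neither difference was called. Cpe counts per library were 66 to 355, the fewest of the 8 genes. Pcsk1n ranged from 139.7 to 167.0 CPM over the 8 ER libraries and from 52.2 to 68.7 CPM over the 7 whole-cell libraries, with no call in either fraction.

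Wfdc2 moved apart under the 2 siRNAs. On ER ribosomes it was at 58.9 and 62.8 CPM with scramble, at 70.0, 69.8 and 69.8 CPM with Nmd3 siRNA and at 52.1, 53.7 and 50.5 CPM with Gnl3 siRNA. The scramble mean lay between the means of the knockdown groups. Against scramble, the log2 change was -0.23 with Gnl3 siRNA (SE 0.0638, edgeR adjusted p = 0.0446) and 0.21 with Nmd3 siRNA (SE 0.0638, edgeR adjusted p = 0.131). The first was only just called and was lost with DESeq2 (adjusted p = 0.0634) and with library totals in place of TMM factors (0.0635). It was also lost under the replicate block (0.124), without Gnl3 replicate 1 (0.144), 2 (0.0811) or 3 (0.19), without Nmd3 replicate 1 (0.0501) and without scramble replicate 2 (0.21) or 3 (0.448), with a range over all alternatives of 0.00767 to 0.448. In whole-cell RNA Wfdc2 was at 21.02, 23.7 and 21.2 CPM with scramble, 20.1 and 22.4 CPM with Nmd3 and 17.7 and 17.2 CPM with Gnl3 siRNA, and neither difference was called (edgeR adjusted p = 0.913 and 0.196).

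The lipid carrier, the growth factor and binding protein mRNAs and the other inhibitor were not called against scramble in either fraction. Apoe was at 1455 and 1437 CPM on scramble ER ribosomes, at 1677, 1659 and 1540 CPM with Nmd3 siRNA and at 1320, 1506 and 1427 CPM with Gnl3 siRNA. The log2 change of Apoe with Nmd3 siRNA was 0.18 (SE 0.0536, edgeR adjusted p = 0.176), and the Gnl3 libraries overlapped scramble. The Nmd3 difference of Apoe was called without Nmd3 replicate 3 (adjusted p = 0.0344), without Gnl3 replicate 1 (0.0427) and without a filter on low counts (0.000355). Mdk held between 549.6 and 618.8 CPM over all 8 ER libraries, with log2 changes of -0.06 (SE 0.0414) and 0.03 (SE 0.0415) for Nmd3 and Gnl3 siRNA. Igfbp2 was at 612.5 to 758.3 CPM and Spint2 at 381.4 to 422.8 CPM on ER ribosomes. Over all 8 genes, 1 was called higher (Cpe, beside 0.652% of all genes) and 1 lower (Trh, beside 0.516%) with Nmd3 siRNA on ER ribosomes, and 2 were called lower (Trh and Wfdc2, beside 1.17%) with Gnl3 siRNA. In whole-cell RNA 1 was called lower with Gnl3 siRNA (Trh, beside 0.297%) and none with Nmd3 siRNA. The median log2 changes of the 8 with Nmd3 and Gnl3 siRNA were 0.07 and -0.03 on ER ribosomes and 0.10 and -0.04 in whole-cell RNA, against 0.00 for all genes in each.

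**Figure D3:**
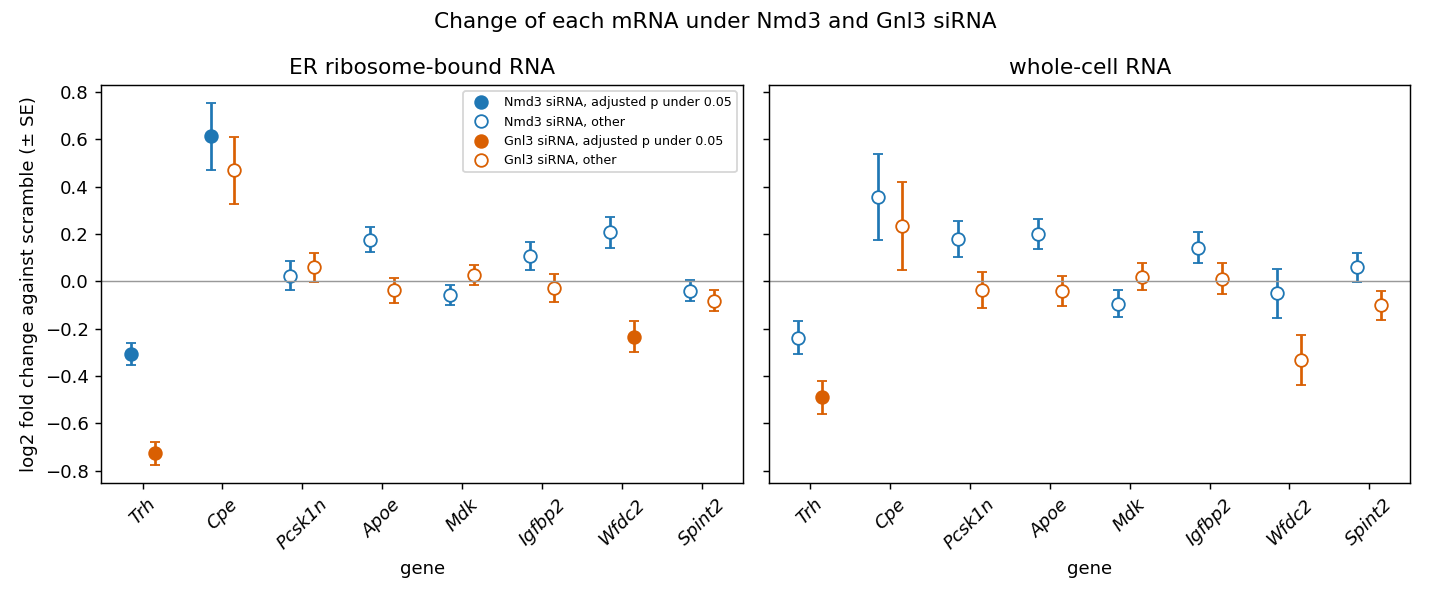
Log2 fold change against scramble siRNA (vertical axis, with SE bars) for each of the 8 genes in ER ribosome-bound RNA (left) and whole-cell RNA (right); blue is Nmd3 siRNA, orange is Gnl3 siRNA, and filled points passed an adjusted p of 0.05. Trh is below 0 in all 4 comparisons, from -0.24 to -0.73, Cpe is above 0 in all 4, from 0.23 to 0.61, and the other 6 genes lie between -0.33 and 0.21.

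The 2 knockdowns were also set against each other, a comparison added after the values had been seen. On ER ribosomes 2.19% of genes were called between them, and 55% of those calls were higher with Gnl3 siRNA (65.2% with library totals in place of TMM factors). Trh was lower with Gnl3 than with Nmd3 siRNA by a log2 difference of -0.42 (SE 0.0427, edgeR adjusted p = 1.12e-06), and Wfdc2 by -0.44 (SE 0.0569, edgeR adjusted p = 3.36e-05). Apoe differed by -0.22 (SE 0.0478, edgeR adjusted p = 0.0348), a call that was lost without Gnl3 replicate 1 (0.0597), Gnl3 replicate 3 (0.0981) or Nmd3 replicate 1 (0.128), within a range of 1.86e-08 to 0.128. These 3 genes were all lower with Gnl3 siRNA, a direction in which 0.987% of genes were called. In whole-cell RNA, where 0.212% of genes were called, no member was. Trh and Wfdc2 were thus the pair of members that separated the knockdowns on ER ribosomes under every alternative tried.

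Whether an siRNA changed the ER to whole-cell ratio itself was fitted as an interaction. The ratio of Trh was 2.77 and 2.77 in the scramble lysates, 2.77 and 2.49 in the Nmd3 lysates and 2.40 and 2.35 in the Gnl3 lysates. The Gnl3 values were below the scramble values, with a log2 difference of -0.24 (SE 0.0886, edgeR adjusted p = 0.999), and the Nmd3 difference was -0.07 (SE 0.0883, edgeR adjusted p = 0.93). For Wfdc2 the Nmd3 difference was 0.26 (SE 0.113, edgeR adjusted p = 0.828). The test called 0% of genes for either siRNA, with 1078 (Nmd3) and 649 (Gnl3) of 18271 genes at an unadjusted p under 0.05, and DESeq2 called 2 and 0. These contrasts share the scramble libraries in which the genes were chosen.

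The genes whose levels varied most like Trh were ranked by Pearson's r of log2 CPM over the 15 libraries after each fraction's mean was taken off, among 9783 genes with a mean of at least 10 CPM. The 5 nearest were Tdh (r = 0.982), the mouse threonine dehydrogenase, Gm17232 (0.937), Chac1 (0.928), a glutathione-degrading enzyme, Psat1 (0.906), a serine synthesis enzyme, and Stc2 (0.905), the secreted glycoprotein stanniocalcin 2. Gm17232 overlaps Tdh on the opposite strand, so these 2 may share counts. The libraries share siRNA groups, so these values are a description with no test.

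These genes were chosen by how they varied with Trh over the same libraries, so their changes are a description with no test. On ER ribosomes with Gnl3 siRNA the log2 change was -0.36 for Tdh (SE 0.0397), -0.63 for Chac1 (SE 0.0894), -0.33 for Psat1 (SE 0.0458) and -0.38 for Stc2 (SE 0.0662). All 4 were smaller in size than the change of Trh. With Nmd3 siRNA the log2 changes of the 5 ran from -0.20 (Chac1) to -0.05 (Gm17232). Unlike Trh, Psat1 was not higher on ER ribosomes in scramble cells (489.0 against 532.2 CPM), and Chac1 was nearly level (50.4 against 46.7 CPM).

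**Figure D4:**
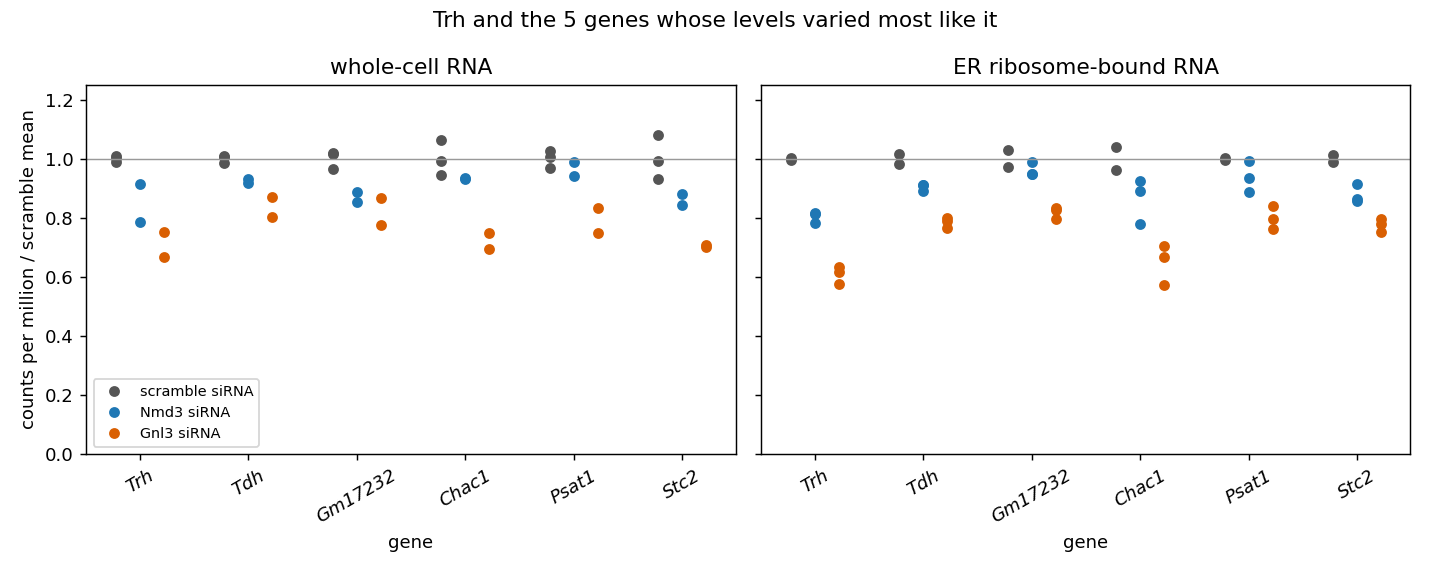
CPM of Trh and the 5 genes nearest to it, divided by the mean of the scramble libraries of the same fraction (vertical axis, from 0), for whole-cell RNA (left) and ER ribosome-bound RNA (right); each point is a library, coloured by siRNA. For every gene the Gnl3 libraries lie below all scramble libraries in both fractions, which follows in part from how the 5 were chosen and held for 6.87% of 9784 genes with a mean of at least 10 CPM, and the Nmd3 libraries of Trh lie between the 2.

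By the same measure, Wfdc2 was nearest to Reck (0.917) and Tubb3 (0.914), Apoe to Ctsz (0.909) and Tecpr1 (0.909), and Igfbp2 to Gusb (0.922) and Gm26728 (0.911). Mdk was nearest to Pcbp1 (0.904) and Eef2 (0.883), Pcsk1n to Rbmxl2 (0.92) and Fbxl6 (0.919), and Spint2 to Gm17122 (0.929) and Gnl1 (0.915). On the opposite strand Gm26728 overlaps Cd9, Gm17122 overlaps Coro1c, Ctsz overlaps Nelfcd, Gnl1 overlaps Prr3 and Pcbp1 overlaps 1600020E01Rik. Each of these may share counts with the gene it overlaps. Cpe was below 10 CPM and was not compared. Among the other 7 genes themselves the highest values were 0.87 for Apoe with Igfbp2 and 0.71 for Trh with Wfdc2, and the lowest was -0.64 for Apoe with Mdk.

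Other genes of the same pathways were taken from lists that leave the 8 genes out. In scramble cells 15 of 24 tested genes of prohormone processing and regulated secretion were called higher on ER ribosomes and none lower, beside 25.1% of all genes called higher and 50.3% called either way, led by Penk, the enkephalin precursor (4.92 against 1.63 CPM, log2 ratio 1.58, SE 0.23), and the carboxypeptidase Cpz (1.38, SE 0.172). Of 17 WAP and Kunitz inhibitors and their target proteases 11 were higher and none lower, and of 41 other secreted proteins of stem cells 32 were higher, among them B2m (1.39) and Cst3 (1.35), and 2 lower. The median log2 ratios of these 3 lists were 0.72, 0.77 and 0.96. The edgeR calls lower came from large proteins: Lama1 (-1.17, SE 0.204) and Col4a1 (-0.61, SE 0.115), which encode basement membrane chains.

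The partners of the single members were more mixed, beside the same 25.1% of all genes called higher. Of 24 apolipoproteins, lipoprotein receptors and lipid export genes 13 were higher on ER ribosomes, with Apoc1 at 1.38 (SE 0.125), and 5 were lower, led by the giant receptor Lrp2 (-1.56, SE 0.301) and by Apob (-1.26, SE 0.381). Of 16 genes of midkine, pleiotrophin and their receptors 7 were higher, led by the syndecan Sdc4 (1.43, SE 0.0589), and 2 lower, Lrp1 and Notch2. Of 15 genes of insulin-like growth factors, their binding proteins and receptors 6 were higher and 2 lower. Of 3 tested genes of thyrotropin-releasing hormone receptors and breakdown none was higher, and the cytosolic peptidase Prep was lower (-0.34, SE 0.0651). The receptor genes proper were mostly too low to be tested.

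With the siRNAs few of these genes were called on ER ribosomes, where 1.17% of all genes were called with Nmd3 and 2.68% with Gnl3 siRNA. Of the 24 prohormone genes none was called with Nmd3 siRNA, a count near that background, and 2 were called higher with Gnl3 siRNA: Pam (0.44, SE 0.107), which amidates peptide hormones, and the carboxypeptidase Cpd (0.39, SE 0.102). The median log2 change of that list was 0.09 in both comparisons. With Nmd3 siRNA 5 of 41 other secreted proteins were called, all higher, beside 0.652% of all genes called higher. So were 2 of 17 inhibitors and proteases, 2 of 15 insulin-like growth factor genes, 1 of 24 apolipoprotein genes and 0 of 16 midkine genes. With Gnl3 siRNA 4, 1, 2, 2 and 1 of these lists were called higher, in that order, and 1 insulin-like growth factor gene lower. Htra1, a secreted protease, rose with Nmd3 (0.64, SE 0.0967) and with Gnl3 siRNA (0.55, SE 0.0961), as did the binding protein Igfbp3 (0.42 and 0.36) and the Kunitz inhibitor Tfpi (0.44 and 0.37), while the 2 comparisons share their scramble libraries. Sdc4 rose with Gnl3 siRNA on ER ribosomes (0.35, SE 0.0517) and in whole-cell RNA (0.39, SE 0.0723). Stc2 fell with Gnl3 siRNA by 0.38 on ER ribosomes and by 0.50 in whole-cell RNA. Leaving out each library in turn, 1 of the 11 list genes that met the naming rule for Gnl3 siRNA on ER ribosomes (Sdc4) kept its edgeR call throughout, 0 of the 7 for Nmd3 siRNA and 0 of the 3 for Gnl3 siRNA in whole-cell RNA did.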

How the data were processed

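Gene counts came from poly-A RNA libraries of ER ribosomes and whole cells (15.2 to 29.9 M gene counts each). The deposited counts are raw and unnormalized. The submitters' processing notes name GRCm39, DESeq2, HTSeq 0.11.2 and STAR 2.7.9a. The annotation release, strand setting and filters are not given in the sources used here. HTSeq lines that name no gene were left out (no feature: 46.6% to 48.3%).

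Counts were tested in R 4.3.3 with edgeR 4.0.16 (filterByExpr, TMM, robust quasi-likelihood fit). Benjamini-Hochberg adjustment ran over every gene in a fit, and adjusted p under 0.05 was called. ER against whole-cell ratios and interactions used 1 fit of 15 libraries, and siRNA comparisons used separate fits of 8 ER and 7 whole-cell libraries. Means ± SD are of CPM without TMM factors. SE is that of the fitted log2 change. DESeq2 1.42.0, library totals, no filter, a replicate block, all 17 libraries and leaving out each library were alternatives. Code was tested on simulated data.

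Both fractions of a number come from 1 lysate, which pairs them. Their residuals correlated between -0.03 and 0.02, and the block changed no call for the 8 genes in those fits.

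Symbols (52083 of 55416 IDs) and sequences came from GENCODE M21 (GRCm38), so no coordinates are given. The genes and lists were chosen with earlier results of these data known. Named genes were the 8, both targets, in each list and comparison at most the 2 called genes with the largest change in each direction, and the genes nearest by r (5 for Trh, 2 for others). A gene that met this rule is not reported here.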

Additional observations from a re-analysis of the deposited data

Results flagged for a closer look

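The 2 whole-cell libraries that the study left out, Nmd3 replicate 2 and Gnl3 replicate 3, hold levels above every scramble whole-cell library for 7 and 1 of the 8 genes. The same held for 28.1% and 35.1% of the 15259 genes with a mean of at least 1 CPM. In Nmd3 replicate 2, Pcsk1n was at 141.4 CPM, Mdk at 402.7, Igfbp2 at 416.1, Wfdc2 at 41.96, Spint2 at 267.2, Apoe at 629.9 and Cpe at 6.188 CPM. In Gnl3 replicate 3, Cpe was at 5.874 CPM. Trh went the other way, at 49.6 CPM in Nmd3 replicate 2 and 67.3 CPM in Gnl3 replicate 3, below every other whole-cell library. Across genes these 2 libraries correlated with the other 7 whole-cell libraries at 0.911 to 0.936, against 0.989 to 0.994 among those 7.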

How the results depend on the processing

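The fall of Trh with Gnl3 siRNA on ER ribosomes kept its call under each alternative run, with log2 changes from -0.758 to -0.688. Cpe limits precision, at 66 to 355 counts per library. DESeq2 gave Cpe no adjusted p between the knockdowns in whole-cell RNA, so no value stands there for it. With 2 or 3 libraries a group, leaving 1 out left some groups with 1 library, which was assumed to vary like the others. The cause of the changes below was not tested, apart from those that follow from fewer libraries.

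With the 2 set-aside whole-cell libraries restored, genes called between ER and whole-cell RNA went from 9197 to 2353 (scramble), 9152 to 2819 (Nmd3) and 8795 to 4540 (Gnl3). In whole-cell RNA 0 genes were then called by edgeR for Nmd3 (29 before), Gnl3 (142) or Gnl3 against Nmd3 (37), and Trh with Gnl3 siRNA was at -0.599 without a call. Log2 changes that turned sign there were, in whole-cell RNA, 0.589 for Mdk and 0.604 for Wfdc2 with Nmd3 siRNA, -0.345 for Igfbp2 and 0.391 for Nmd3 with Gnl3 siRNA, and -0.531 for Mdk between the knockdowns. In the ER to whole-cell ratio they were 0.154 for Trh, -0.627 for Mdk and -0.377 for Wfdc2 (Nmd3 effect), and 0.333 for Igfbp2, -0.011 for Mdk and -0.386 for Nmd3 (Gnl3 effect). The log2 ratios of Pcsk1n, Mdk, Igfbp2 and Spint2 under Nmd3 siRNA were then 0.523, 0.83, 0.907 and 0.818, a description with no test.

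Without a filter on low counts, 407 genes were called for Nmd3 siRNA on ER ribosomes (206 with it), 115 in whole-cell RNA, 586 between the knockdowns on ER ribosomes (387 with it) and 122 in whole-cell RNA, and 14 and 1 for the Nmd3 and Gnl3 effects on the ratio (0 with it). DESeq2 called 2 and library totals 1 for the Nmd3 effect. Wfdc2 with Gnl3 siRNA on ER ribosomes lost its call at -0.231 with DESeq2 and -0.223 with library totals.

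The siRNA groups share only a replicate number (correlations of same-numbered libraries -0.02 to 0.04). With the replicate block, 126 genes were called for Nmd3 and 258 for Gnl3 siRNA on ER ribosomes (472 without it), 63 between the knockdowns in whole-cell RNA and 1 for the Nmd3 effect on the ratio. Under the block Wfdc2 was at -0.232 without a call, Igfbp2 turned to 0.01 (both with Gnl3 siRNA on ER ribosomes), and the Nmd3 effect on the ratio of Gnl3 turned to -0.065. The block changed no other call for the 8 genes.

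Leaving out each library in turn moved the counts of called genes. On ER ribosomes they ran from 23 (without scramble replicate 3) to 366 (without Nmd3 replicate 2) for Nmd3 siRNA, from 70 (without scramble replicate 2) to 1173 (without Nmd3 replicate 2) for Gnl3 siRNA, and from 159 (without Gnl3 replicate 1) to 703 (without Nmd3 replicate 2) between the knockdowns. In whole-cell RNA they ran from 8 (without Nmd3 replicate 1) to 1024 (without Nmd3 replicate 3), from 17 (without Gnl3 replicate 1) to 292 (without Nmd3 replicate 1), and from 7 (without Gnl3 replicate 1) to 983 (without Nmd3 replicate 3). The Nmd3 effect on the ratio gave 0 to 304 genes, the most without Nmd3 whole-cell replicate 3. Values whose call was lost in at least 1 such fit were Trh (-0.327 to -0.285) and Cpe (0.525 to 0.688) with Nmd3 siRNA on ER ribosomes, Wfdc2 with Gnl3 siRNA there (-0.272 to -0.191), Trh with Gnl3 siRNA in whole-cell RNA (-0.58 to -0.407) and Apoe between the knockdowns on ER ribosomes (-0.262 to -0.166). Calls were gained by Apoe with Nmd3 siRNA and by Cpe with Gnl3 siRNA on ER ribosomes. Without Nmd3 whole-cell replicate 3, calls were also gained in whole-cell RNA by Trh, Apoe (adjusted p = 0.0177) and Pcsk1n (0.0423) with Nmd3 siRNA, and by Apoe (0.0093), Pcsk1n (0.032) and Spint2 (0.0335) between the knockdowns. Between the knockdowns Trh gained one in whole-cell RNA without Nmd3 replicate 1 (0.0106), Mdk on ER ribosomes without Nmd3 replicate 2 (0.0345), and, without a filter on low counts, Igfbp2 on ER ribosomes (0.0209) and Apoe in whole-cell RNA (0.0425).

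Small differences, none of them called with all libraries used, turned sign without 1 library. On ER ribosomes these were Pcsk1n between the knockdowns (-0.04 to 0.112), Apoe (-0.085 to 0.011), Igfbp2 (-0.053 to 0.012) and Nmd3 (-0.044 to 0.012) with Gnl3 siRNA, and Pcsk1n (-0.052 to 0.098) and Gnl3 (-0.017 to 0.366) with Nmd3 siRNA. In whole-cell RNA they were Apoe (-0.176 to 0.084), Igfbp2 (-0.122 to 0.134) and Pcsk1n (-0.1 to 0.026) with Gnl3 siRNA, and Spint2 (-0.02 to 0.135) and Wfdc2 (-0.149 to 0.039) with Nmd3 siRNA. For the Gnl3 effect on the ratio they were Apoe (-0.111 to 0.152), Igfbp2 (-0.15 to 0.109), Mdk (-0.009 to 0.034), Nmd3 (-0.002 to 0.089) and Spint2 (-0.013 to 0.078). For the Nmd3 effect they were Apoe (-0.05 to 0.035), Gnl3 (-0.048 to 0.329), Igfbp2 (-0.101 to 0.005), Mdk (-0.012 to 0.118) and Trh (-0.171 to 0.077).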
